A study of Mus musculus with 16 samples.

Results

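The chemokines and chemokine receptors were taken as every gene whose current symbol is Ccl, Cxcl, Ccr, Cxcr, Ackr or Xcr followed by a number, or is Xcl1, Cx3cl1 or Cx3cr1, with symbols reached through the RefSeq accession of each probe. RefSeq holds 67 such mouse genes, of which 57 had a probe on the array and 44 gave enough signal to be tested among 18566 genes in all. The other 13 were at background and are given at the end. Of the 10 genes with no probe matched to them, 5 are pseudogenes in RefSeq (Ccl16-ps, Ccl19-ps1, Ccl19-ps2, Ccl19-ps3 and Cxcl11), and the others are Ccl21b, Ccl21c, Ccl21d, Ccl26 and Ccl27b.

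RNA came from airway epithelium brushed from mice of the FvB strain that were knockout (ko) or wild type (wt) for the integrin subunit beta6, the product of Itgb6. The 4 groups held 4 one-colour arrays each. ko OVA and wt OVA mice had 20 ug of the antigen ovalbumin (OVA) injected into the peritoneum on days 1, 4 and 7, and then 10 ug given into the nose weekly for 9 weeks. ko saline and wt saline mice had saline by the same routes and at the same times. All were 6 to 8 weeks old at sensitization, tissue was taken 24 h after the last dose, and neither a Cre line nor a promoter is named for the knockout. The labels do not say that the arrays of a group came from separate mice, so the p-values measure the spread between these samples, which may be technical.

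Chemokines are small secreted proteins that guide leukocytes along gradients. They act through receptors that span the membrane and couple to G proteins of the Gi class, while the atypical receptors bind chemokines without that coupling and take them up. In the airway, type 2 cytokines induce chemokines for eosinophils, T helper cells and monocytes, the nuclear factor kappa B pathway induces those for neutrophils, and several chemokines of the epithelium itself are made at rest. Itgb6 pairs with the alpha v subunit on epithelial cells, and the pair activates latent TGF-beta.

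Signals are given as log2 of the processed spot intensity over the 75th percentile of its array, so 0 is the signal of a probe at that percentile. A common floor of -3.32 was set from the dimmest array (ko OVA 4), and a value of -3.32 means at or below it. Levels of different genes come from different probes and are not set against each other. The 75th percentile was 78.0 to 793 intensity units over the 16 arrays, and 43.3% to 74.5% of probes were well above background. Epithelial markers (6 of 6 tested, among them Epcam, Cdh1 and Krt8) had summed signals of 422 to 514 times the percentile in ko OVA, 396 to 523 in ko saline, 482 to 680 in wt OVA and 464 to 608 in wt saline. The Itgb6 probe read -1.71 to -0.96 in ko OVA and -1.02 to -0.73 in ko saline, against -0.64 to -0.56 in wt OVA and -0.93 to -0.39 in wt saline; where it lies relative to the disrupted sequence is not given in the sources used here, so it does not check the genotype labels.

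Of the 44 tested genes, 22 were well above background on all 16 arrays and 12 were at the floor on 8 arrays or more. Their signals spread widely between arrays: the median range over the 16 arrays was 1.89 on the log2 scale for these genes and 0.92 for all genes tested. In bulk tissue of this kind, fewer cells of a type and less RNA per cell cannot be told apart.

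**Figure D1:**
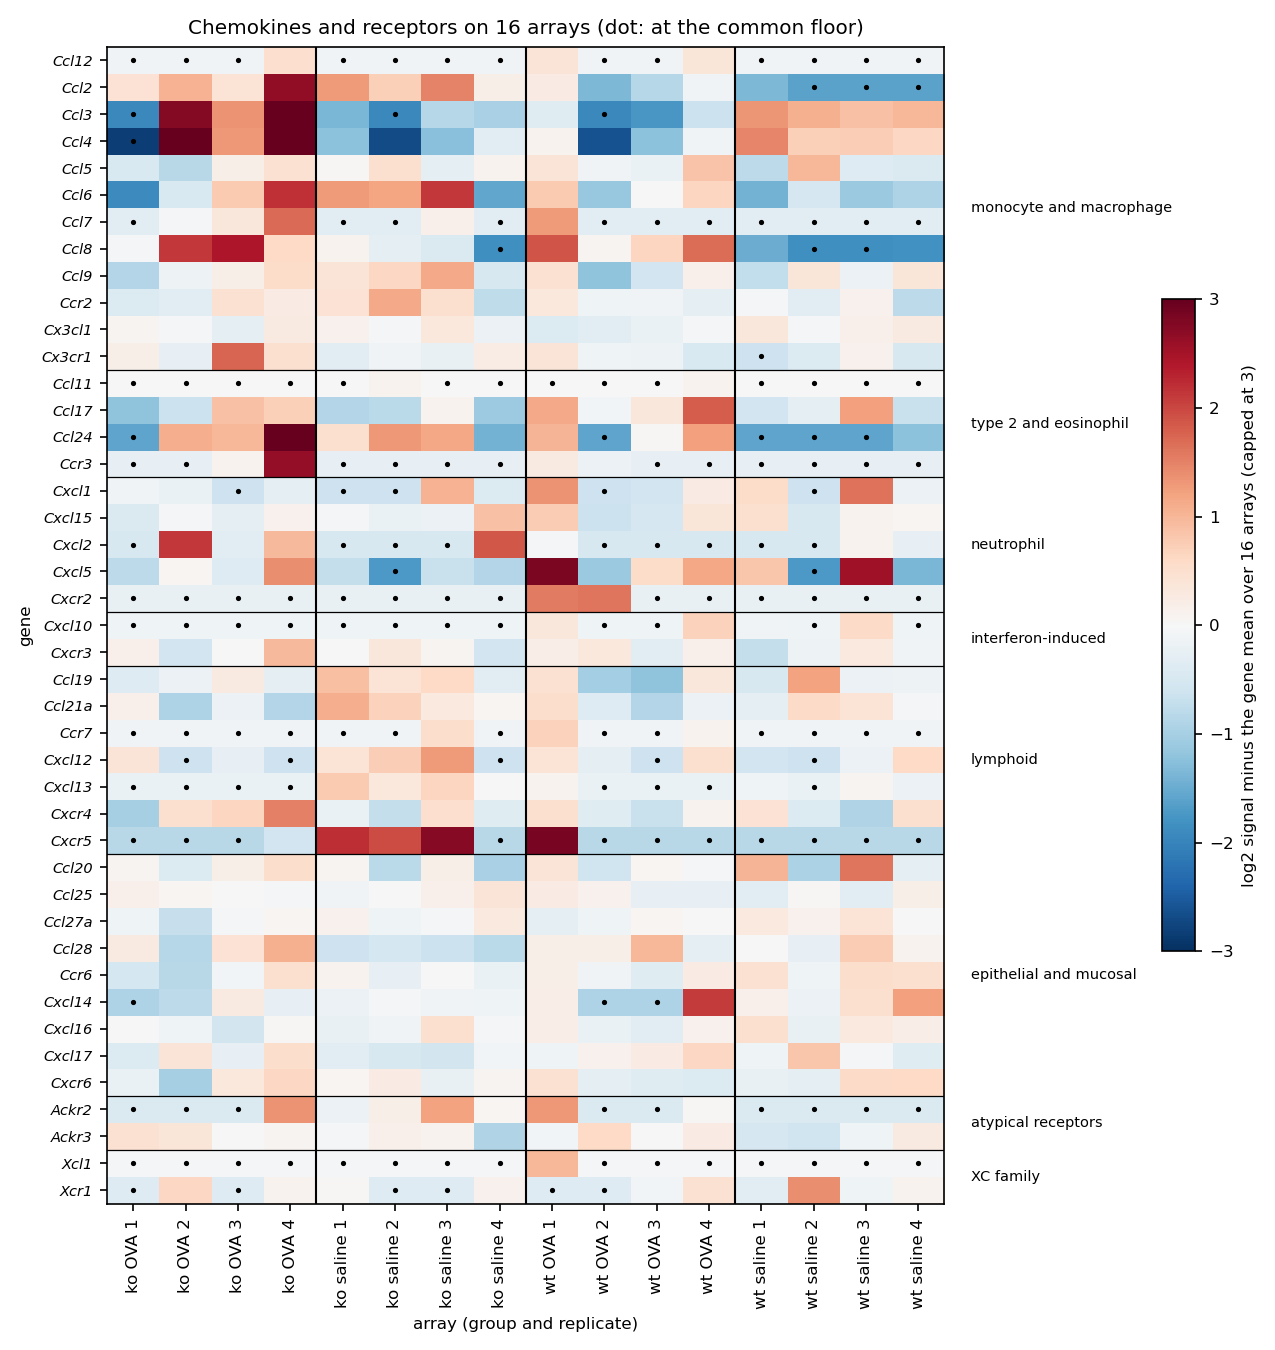
Heat map of 43 of the 44 tested chemokines and receptors (rows, by role) on the 16 arrays (columns, by group). Colour is the log2 signal minus the mean of that gene over all arrays, with colours capped at 3, and a dot marks a signal at the common floor. Ccl2 is below its mean on all 4 wt saline arrays, Ccl3 and Ccl4 split the ko OVA arrays, and Cx3cl1, Ccl25 and Cxcl16 vary little.

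Ccl8 was the chemokine called for OVA against saline. It is a ligand that in the mouse acts through Ccr8 and draws T helper cells of the type 2 kind in allergic skin. With OVA, wt epithelium had 7.03 times the Ccl8 signal of wt saline epithelium. Ccl8 was the only one of the 44 genes to pass the test in that comparison, where 2.61% of all genes passed. Over both genotypes together Ccl8 was also higher with OVA. It was again the only one of the 44 to pass, where 6.46% of all genes passed.

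The 250 bases before the Ccl8 start site and those before Ccl3, described further on, are shown because these genes gave the largest differences with OVA among the members that have a promoter in the RefSeq table for GRCm38.p6. Capitals mark a TATAAA match.
Ccl8, chr11:82114935-82115184, plus strand: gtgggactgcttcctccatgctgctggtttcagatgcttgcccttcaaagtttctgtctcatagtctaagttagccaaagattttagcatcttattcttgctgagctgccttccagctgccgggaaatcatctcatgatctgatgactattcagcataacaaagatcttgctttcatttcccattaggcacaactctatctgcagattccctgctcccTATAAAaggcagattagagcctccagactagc
Ccl3, chr11:83649379-83649628, minus strand: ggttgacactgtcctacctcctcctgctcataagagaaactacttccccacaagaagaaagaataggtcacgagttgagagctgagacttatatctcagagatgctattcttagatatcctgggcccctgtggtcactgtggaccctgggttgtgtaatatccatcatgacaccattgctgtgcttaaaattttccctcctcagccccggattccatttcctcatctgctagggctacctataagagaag
TATAAA was searched on the gene's strand, and 3 further motifs on both strands: the STAT6 core (TTC, 4 bases of any kind, GAA), TGANTCA, the AP-1 core, and the NF-kB site. Overlaps between motifs were allowed. In Ccl8, TATAAA lay at bases -32 to -27 from the start site, and none of the 4 motifs was found in these bases of Ccl3. TATAAA was in 9 of the 36 promoters of 32 tested genes, against 7.6% of all 32851 promoters. The NF-kB motif was in 8 of the 36, those of Ackr2, Ccl9, Ccl20, Ccr3, Ccr6, Cxcl1, Cxcl2 and Cxcl10, against 7.3% of all. The STAT6 core was in the Ccl17 promoter only among the 36, against 5.9% of all, and TGANTCA was in 4 of 36, against 6.7% of all.

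Array by array, Ccl8 read -1.51, 0.64, 0.95 and -0.89 in ko OVA and -1.37, -1.78, -1.91 and -3.32 in ko saline. It read 0.40, -1.39, -0.84 and 0.20 in wt OVA and -2.97, -3.32, -3.32 and -3.29 in wt saline. All 4 wt OVA arrays lay above all 4 wt saline arrays, whereas 1 ko OVA array lay below the highest ko saline array.

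The wt difference in Ccl8 was 2.81 ± 0.56 (log2, SE; adjusted p = 0.015, limma over all genes). In this comparison 2.61% of all genes tested passed, and Ccl8 was 1 of 44 here. As 2 wt saline arrays were at the floor, the size depends on where the floor lies: a lower floor gave 2.98. The call was lost with normexp background correction (1.49, adjusted p = 0.182), with median scaling (2.62, adjusted p = 0.0542), without wt saline 2 (adjusted p = 0.0515) and without wt OVA 1 (adjusted p = 0.0685).

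In ko epithelium the Ccl8 difference with OVA was 1.89 ± 0.56 (log2, SE) and did not pass (adjusted p = 0.183). The genotypes' responses differed by -0.92 ± 0.79 (ko minus wt), with an unadjusted p = 0.262 in limma. Over both genotypes the OVA difference was 2.35 ± 0.39 (adjusted p = 0.00276), where 6.46% of all genes passed. That call held in all 26 alternatives tried, with adjusted p from 0.00117 to 0.022.

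Within single slides of 4 arrays, the Ccl8 difference with OVA in ko was 4.27, -0.15 and 2.49 on the 3 slides that held both ko groups, and in wt it was 1.89, 3.17 and 3.10 on the 3 that held both wt groups. Summed macrophage and dendritic cell markers (10 of 12 tested) were 50.6 to 77.8 in ko OVA and 51.6 to 60.7 in ko saline, and 48.6 to 57.6 in wt OVA and 63.6 to 93.9 in wt saline. The single markers did not all go the way of the sum. Over the 10 tested, the median OVA difference (log2) was 0.07 in ko and 0.10 in wt. In wt 0 were called higher and 1 lower, and in ko 0 were called (limma, adjusted p under 0.05). The part of these markers in the Ccl8 result was not tested.

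**Figure D2:**
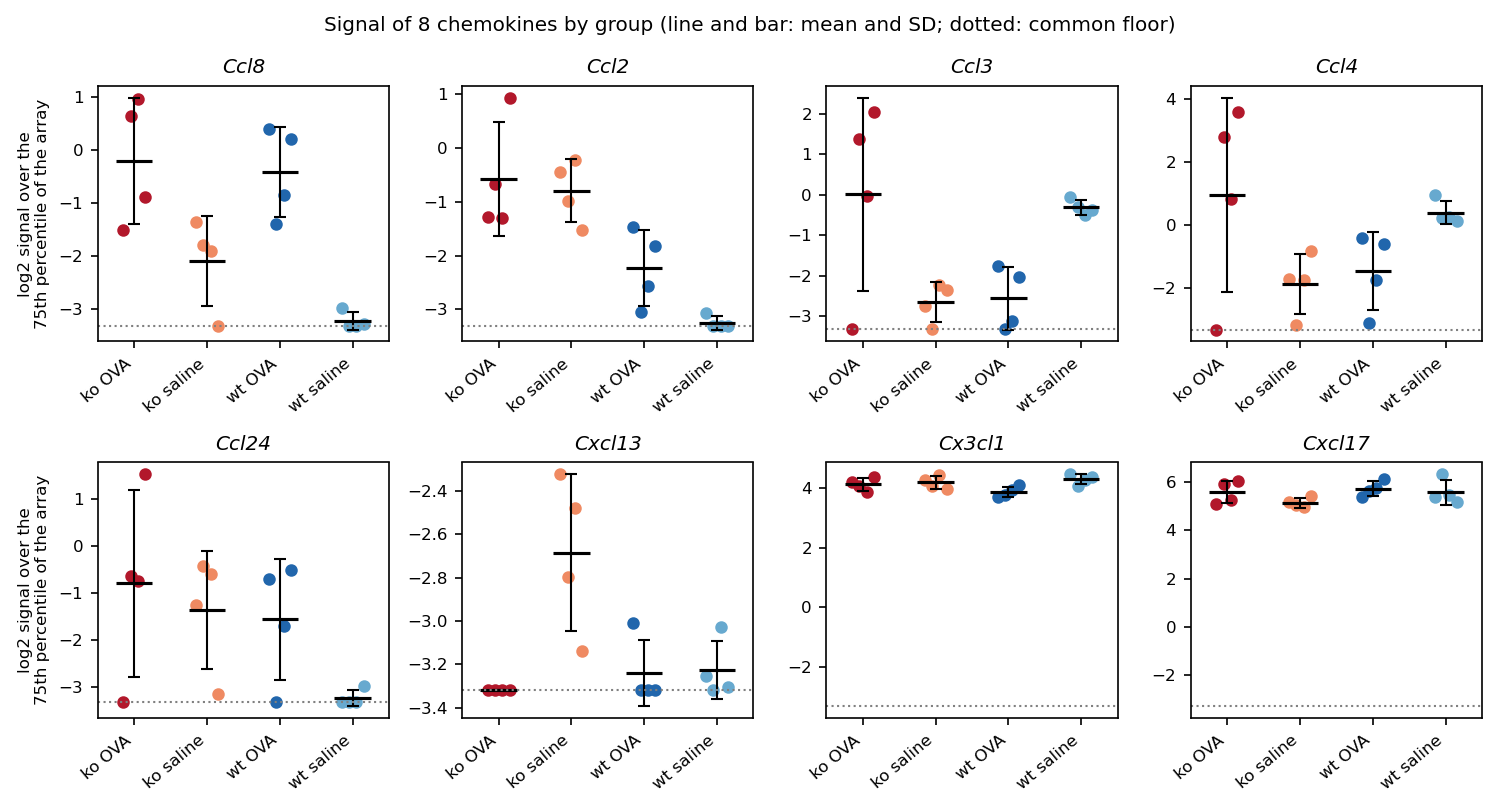
Vertical axes give the log2 signal (0 is the 75th percentile of the array) of 8 chemokines in the 4 groups. Points are arrays, the line and bar are the mean and SD of 4 arrays, and the dotted line is the common floor at -3.32; each panel has its own vertical scale. Ccl8 is higher on the 4 wt OVA than on the 4 wt saline arrays, every ko array has more Ccl2 than its wt group of the same treatment, and 1 ko OVA array stands at the floor for Ccl3 and Ccl4.

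Ccl2, the main ligand of Ccr2 and a recruiter of monocytes, was the chemokine called for genotype. Over saline and OVA together, ko epithelium had 4.16 times the signal of wt epithelium. Ccl2 was the only one of the 44 genes to pass there, where 0.269% of all genes passed. Ccl2 read -1.28, -0.66, -1.30 and 0.94 in ko OVA and -0.44, -0.99, -0.22 and -1.53 in ko saline. It read -1.47, -3.05, -2.56 and -1.83 in wt OVA and -3.06, -3.32, -3.32 and -3.32 in wt saline. The ko and wt arrays did not overlap under either treatment.

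The pooled genotype difference in Ccl2 was 2.06 ± 0.33 (log2, SE; adjusted p = 0.00986), in a comparison where 0.269% of all genes passed. As 3 wt saline arrays were at the floor, its size depends on the floor, and a lower floor gave 2.18. It held without any single array (adjusted p from 0.00378 to 0.0333). It was lost with normexp background correction (1.12, adjusted p = 0.314) and with array position on the slide as a block (1.83, adjusted p = 0.648); wt saline arrays were all in the first 2 of the 4 positions and ko OVA arrays all in the last 2.

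By treatment, the difference in Ccl2 was 1.65 ± 0.46 after OVA (adjusted p = 0.55) and 2.46 ± 0.46 after saline (adjusted p = 0.0589). Neither passed, although 8 alternatives put the saline difference below 0.05, among them leaving out ko OVA 4 (adjusted p = 0.00447) or ko saline 4 (adjusted p = 0.0448). Within slides the ko minus wt difference was 1.76, 0.55 and 2.95 after OVA and 1.78, 2.62 and 2.71 after saline. With OVA the wt arrays for Ccl2 also lay above the wt saline arrays, but the groups nearly touched. The lowest wt OVA array read -3.05 and the highest wt saline array -3.06. The mean OVA difference was 1.02 ± 0.46 in wt (unadjusted p = 0.0438, adjusted p = 0.284 in limma) and 0.22 ± 0.46 in ko.

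Summed mast cell markers (9 of 11 tested, with Cpa3, Tpsb2, Cma1 and Mcpt4 above background on all 16 arrays) stood in the same order of groups, at 85.8 to 130 in ko OVA, 76.1 to 97.5 in ko saline, 53.2 to 61.4 in wt OVA and 30.7 to 44.0 in wt saline. The single markers did not all go the way of the sum. Of the 9 tested, 6 were called higher and 1 lower in ko over both treatments (limma, adjusted p under 0.05). After OVA 5 were called higher and 2 lower, and after saline 6 higher and 0 lower. The part of these markers in the Ccl2 result was not tested.

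No gene of the set passed in the remaining comparisons. In limma at adjusted p under 0.05, 0 of 44 passed for OVA in ko (0.749% of all genes), 0 for ko against wt after saline (0.162%), 0 for ko against wt after OVA (0.145%) and 0 for the interaction, the difference between the OVA responses of ko and wt (0% of all genes).

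At an unadjusted p under 0.05, 7 of 44 passed for OVA in ko, against 9.73% of all genes, and 5 of 44 for OVA in wt, against 16.5%. For ko against wt, 3 passed after OVA, against 5.08%, and 6 after saline, against 6.3%. There were 4 in the interaction, against 3.06%, 6 for OVA over both genotypes, against 19.7%, and 2 for genotype over both treatments, against 7.77%. The median difference over the 44 genes was 0.00 for OVA in ko and 0.14 for OVA in wt, and it was -0.03 for ko against wt after OVA and 0.05 after saline. The medians of all genes were 0.00 in these 4 comparisons.

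**Figure D3:**
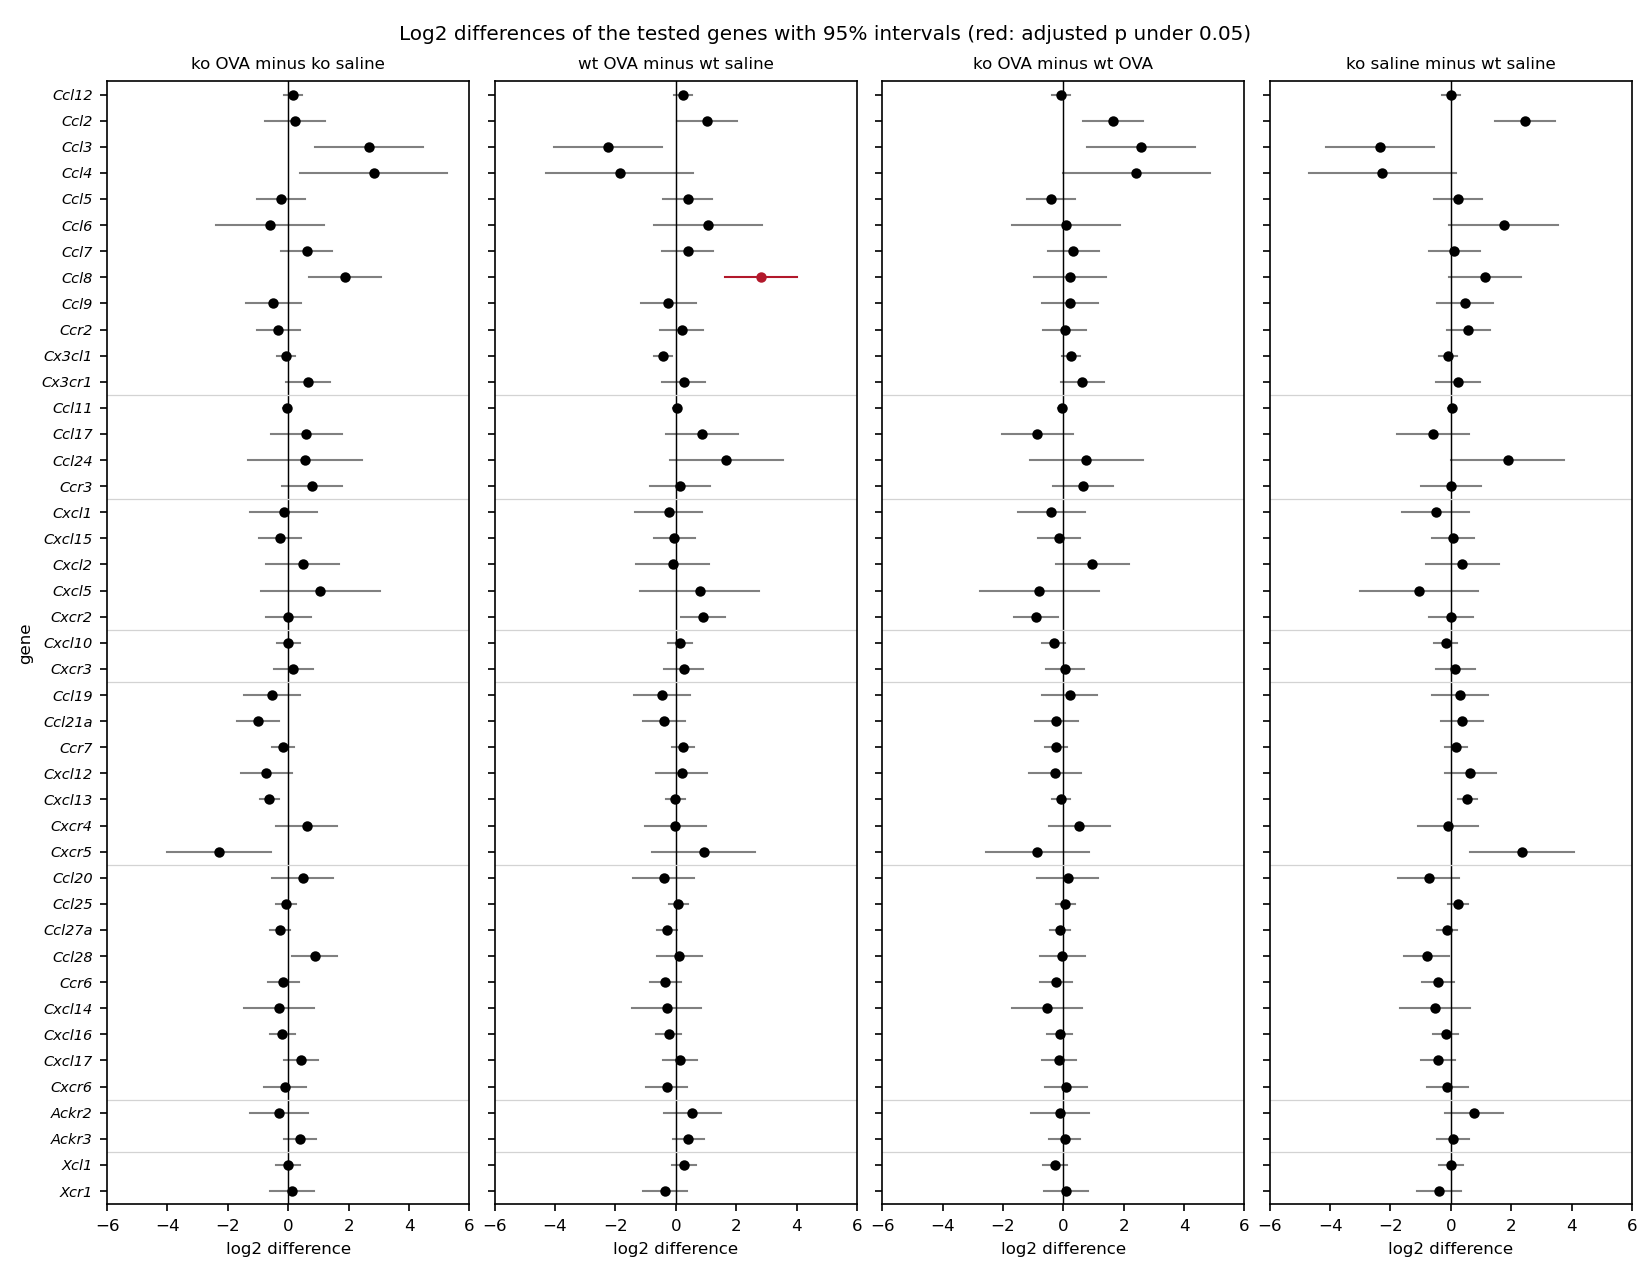
Log2 differences (horizontal axes) with 95% confidence intervals for 43 of the 44 genes (rows, by role) in the 4 comparisons of 2 groups, each with 4 arrays a group. Red marks an adjusted p under 0.05 over all genes, which Ccl8 alone has, for wt OVA against wt saline; the Ccl3 and Ccl4 intervals are among the widest.

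Ccl3 and Ccl4, inflammatory ligands that monocytes, macrophages and neutrophils release, gave the 2 largest interaction terms of the set, and neither passed. Ccl3 read -3.32, 1.37, -0.03 and 2.05 in ko OVA and -2.73, -3.32, -2.23 and -2.34 in ko saline. It read -1.75, -3.32, -3.12 and -2.02 in wt OVA and -0.05, -0.30, -0.50 and -0.37 in wt saline. All wt saline arrays lay above all wt OVA and all ko saline arrays, and 3 ko OVA arrays lay above all ko saline arrays while the fourth was at the floor.

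The OVA difference in Ccl3 was 2.67 ± 0.84 in ko (adjusted p = 0.222) and -2.25 ± 0.84 in wt (adjusted p = 0.189). The interaction was 4.92 ± 1.19, with an unadjusted p = 0.000974 and an adjusted p = 0.879 in limma. After OVA the ko minus wt difference was 2.57 ± 0.84 (adjusted p = 0.837), and after saline it was -2.35 ± 0.84 (adjusted p = 0.64).

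The calls changed with the arrays and groups in the fit. Without ko OVA 1, Ccl3 passed for OVA in ko (3.78, adjusted p = 0.0014), for OVA in wt (-2.25, adjusted p = 0.0158), for ko against wt after OVA (3.68, adjusted p = 0.0031) and in the interaction (6.03, adjusted p = 0.00644), and Ccl4 passed for OVA in ko. With all arrays kept but only those of the groups compared in the fit, Ccl3 passed for OVA in wt (-2.25, adjusted p = 0.0416) and for ko against wt after saline, and it passed in neither of the comparisons that use ko OVA. Within slides the Ccl3 difference with OVA in ko was 2.30, -0.58 and 4.15, and in wt it was -2.95, -1.97 and -1.93. The slide with the negative ko value held ko OVA 1.

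Ccl4 read -3.32, 2.79, 0.82 and 3.59 in ko OVA and -1.71, -3.15, -1.74 and -0.83 in ko saline. It read -0.39, -3.10, -1.72 and -0.58 in wt OVA and 0.97, 0.24, 0.27 and 0.15 in wt saline. The arrays fell in the pattern seen for Ccl3, with the same ko OVA array at the floor and wt saline above both wt OVA and ko saline throughout. Its interaction was 4.69 ± 1.61 (unadjusted p = 0.0113, adjusted p = 0.993 in limma).

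Neutrophil markers also differed widely between arrays. Their summed signal (5 of 9 tested: S100a8, S100a9, Csf3r, Mpo and Retnlg, with Elane, Ngp and Camp at background) was 1.1, 52.8, 25.8 and 32.2 in ko OVA and 3.74, 7.06, 8.39 and 2.79 in ko saline. It was 5.96, 1.24, 3.41 and 5.15 in wt OVA and 26.3, 7.73, 9.82 and 13.9 in wt saline. The lowest sum of all was on ko OVA 1, where Ccl3 and Ccl4 were at the floor. Ccl3 was also at the floor on wt OVA 2, with a sum of 1.24, and on ko saline 2, with a sum of 7.06. Mpo was at the floor on 14 arrays and Csf3r on 9. Over the 5 markers the median OVA difference (log2) was 1.45 in ko and -0.32 in wt, with 0 called in either. Over both genotypes 1 was called higher and 0 lower with OVA (limma, adjusted p under 0.05). The part of these markers in these results was not tested.

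**Figure D4:**
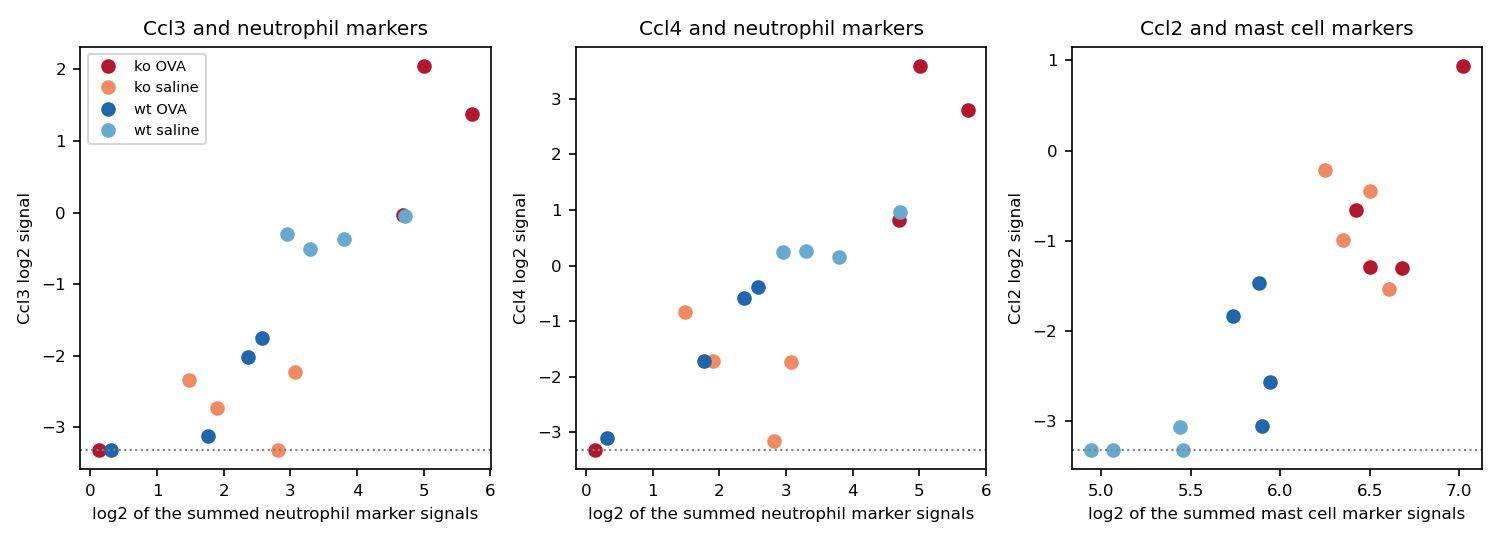
Log2 signal of Ccl3 and Ccl4 against the log2 summed signal of 5 neutrophil markers, and of Ccl2 against that of 9 mast cell markers; each point is an array, coloured by group, and the dotted line is the common floor. The ko OVA array at the floor for Ccl3 and Ccl4 has the lowest neutrophil marker sum, and the 4 wt saline arrays have the lowest Ccl2 and mast cell marker signals.

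The other ligands of monocytes and macrophages and their receptors gave no call. Ccl7, a ligand of Ccr2 and Ccr3, left the floor on 3 ko OVA arrays (-3.06, -2.67 and -1.32), 1 ko saline array (-2.85), 1 wt OVA array (-1.74) and no wt saline array. Ccl12, a mouse ligand of Ccr2, left it on 1 ko OVA and 2 wt OVA arrays and on none given saline. Ccl6, a Ccr1 ligand, ranged from -0.14 to 3.97 in ko OVA, 0.22 to 3.89 in ko saline, 0.62 to 2.55 in wt OVA and 0.36 to 1.27 in wt saline, and its ko minus wt difference after saline was 1.74 ± 0.84 (unadjusted p = 0.0554 in limma).

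Ccl5, which draws T cells and monocytes, and Ccl9, a Ccr1 ligand, were above background on all 16 arrays, and no comparison of either had an unadjusted p under 0.05. Ccr2 averaged -2.27 ± 0.42 in ko OVA, -1.95 ± 0.79 in ko saline, -2.32 ± 0.26 in wt OVA and -2.52 ± 0.39 in wt saline (SD, n = 4 each). The other Ccr2 probe was at the floor on all 16 arrays.

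Cx3cl1, the membrane-bound ligand that epithelium and endothelium make, was bright on every array. It averaged 4.12 ± 0.22 in ko OVA, 4.18 ± 0.21 in ko saline, 3.87 ± 0.17 in wt OVA and 4.29 ± 0.17 in wt saline (SD, n = 4 each). The wt difference with OVA was -0.42 ± 0.14 (unadjusted p = 0.00926, adjusted p = 0.136 in limma), with 1 wt OVA array above the lowest wt saline array. Its receptor Cx3cr1 was dim, from -3.32 to -0.95, and its highest signal was on ko OVA 3. On 14 arrays the other Cx3cr1 probe was at the floor.

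The list of type 2 and eosinophil recruitment had 4 tested genes, Ccl11, Ccl17, Ccl24 and Ccr3, with 0 calls in each of the 7 comparisons. Ccl8, described above, was listed with the monocyte and macrophage ligands and is not among these 4. Ccl24, eotaxin-2, which draws eosinophils through Ccr3, read -3.32, -0.64, -0.75 and 1.53 in ko OVA and -1.24, -0.42, -0.58 and -3.15 in ko saline. It read -0.71, -3.32, -1.70 and -0.51 in wt OVA and -3.32, -3.32, -3.32 and -2.97 in wt saline. It was thus near or at the floor on all wt saline arrays and on 1 array of each other group.

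For Ccl24 the ko minus wt difference after saline was 1.88 ± 0.88 (unadjusted p = 0.0497, adjusted p = 0.793 in limma), and that over both treatments was 1.32 ± 0.62 (adjusted p = 0.642). A second Ccl24 probe gave smaller differences of 0.92 and 0.74 in the same directions. Ccl11, eotaxin-1, was at the floor on 14 of 16 arrays and never above -3.19. Ccl17, a ligand of Ccr4, averaged -1.85 ± 1.02 in ko OVA, -2.45 ± 0.53 in ko saline, -0.99 ± 0.84 in wt OVA and -1.85 ± 0.89 in wt saline, and its difference with OVA over both genotypes was 0.73 ± 0.39 (unadjusted p = 0.0802 in limma).

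Ccr3, the eotaxin receptor, was well above background on all 4 ko OVA arrays and 2 wt OVA arrays and on none of the 8 saline arrays. It reached the common floor or less on all but 4 arrays, and its highest signal was -0.45 on ko OVA 4. It entered the test through OVA arrays alone, so its differences with OVA are not read further, and the other Ccr3 probe was at the floor on all 16 arrays and above background on 0. Of the 8 eosinophil markers, Epx, Prg2, Prg3 and Il5ra were at background. The 3 tested (Ear1, Ear6 and Siglecf) summed to 0.301 to 2.05 in ko OVA, 0.301 to 0.621 in ko saline, 1.51 to 2.46 in wt OVA and 2.15 to 4.90 in wt saline. A sum of 0.301 means all 3 were at the floor, as on ko OVA 1 and 2 and ko saline 2 and 4. Siglecf was at the floor on 14 arrays, Ear6 on 6 and Ear1 on 5. Over both treatments 0 of the 3 were called higher and 1 lower in ko (limma, adjusted p under 0.05).

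The neutrophil ligands and Cxcr2, their shared receptor, gave no call. Cxcl15, the lung ligand lungkine, was bright, at 2.17 ± 0.25 in ko OVA, 2.44 ± 0.51 in ko saline, 2.32 ± 0.68 in wt OVA and 2.37 ± 0.39 in wt saline (SD, n = 4 each). Cxcl5 differed widely between arrays of one group, least in ko saline. It ran from -2.38 to -0.19 in ko OVA, -3.32 to -2.26 in ko saline, -2.70 to 1.23 in wt OVA and -3.32 to 0.96 in wt saline. Its group means ran from -2.59 in ko saline to -0.73 in wt OVA. Cxcl1 ran from -3.32 to -1.09 over all arrays. Cxcl2 was at the floor on 9 arrays and highest on ko OVA 2 (-0.70) and ko saline 4 (-0.97). The Cxcr2 probe used in the test left the floor only on wt OVA 1 (-1.54) and wt OVA 2 (-1.48), with a ko minus wt difference after OVA of -0.90. These 2 arrays had the highest shares of probes well above background (74.5% and 73.2%). This probe was above background on 4 arrays, the least needed to be tested: 1 ko OVA, 2 wt OVA and 1 wt saline array. It would not have been tested without the wt OVA arrays, so its difference is given as a description. A second Cxcr2 probe left the floor on wt OVA 1 (-1.27) and ko OVA 3 (-3.07), with a difference of -0.45.

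Of the interferon-induced ligands of Cxcr3, Cxcl10 stayed dim, between -3.32 and -2.49. It was at the floor on all 8 ko arrays and left it on 2 wt OVA arrays (-2.86 and -2.49) and 2 wt saline arrays (-3.30 and -2.62), and its genotype difference over both treatments was -0.25 ± 0.13 (adjusted p = 0.688), which passed only with the lower floor. Cxcr3, a receptor of activated T cells, averaged -2.30 ± 0.64 in ko OVA, -2.47 ± 0.38 in ko saline, -2.35 ± 0.29 in wt OVA and -2.61 ± 0.42 in wt saline.

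Among the lymphoid chemokines, Cxcl13, which draws B cells through Cxcr5, was highest in ko saline. It was at the floor on all 4 ko OVA arrays and read -2.32, -2.80, -2.48 and -3.14 in ko saline. It read -3.01 and the floor on the other 3 in wt OVA, and -3.25, -3.32, -3.03 and -3.30 in wt saline. All ko OVA arrays were below all ko saline arrays. With the processed intensities the mean of ko OVA was at least 1.55-fold lower, a bound that did not hold with normexp background correction.

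The Cxcl13 difference with OVA in ko was -0.63 ± 0.15 (unadjusted p = 0.000667, adjusted p = 0.0699 in limma), and the ko minus wt difference after saline was 0.54 ± 0.15 (adjusted p = 0.395). Both passed without ko saline 4, at -0.78 (adjusted p = 0.00957) and 0.69 (adjusted p = 0.0299). With normexp background correction they were -0.25 and -0.0046. Its interaction was -0.62 ± 0.21 (adjusted p = 0.993), and over both genotypes the OVA difference was -0.32 ± 0.10 (adjusted p = 0.0814). The genotype difference over both treatments was 0.23 ± 0.10 (adjusted p = 0.622).

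Cxcr5, the receptor of Cxcl13, was well above background on 3 ko saline arrays and 1 wt OVA array only, at -0.26, -0.52, 0.25 and 0.37, and it was -3.06 or lower on the other 12. A gene had to be above background on 4 arrays to be tested, so Cxcr5 entered through these arrays, and its differences are given as a description. The ko minus wt difference after saline was 2.35, and the OVA difference in ko was -2.29. Those 4 arrays had summed B and plasma cell markers (5 of 7 tested, with Cd79a and Pax5 at background) of 15.1, 12.2, 15.4 and 22.6, within a range of 4.02 to 17.9 on the other 12 for the first 3. Striated muscle markers (5 of 5 tested) summed to 0.874, 179.5, 64.4 and 98.5 on the same 4 arrays and to 0.502 to 17.2 on the others, and the part of either in the result was not tested.

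Ccl21a, a Ccr7 ligand, had an OVA difference of -0.99 ± 0.33 in ko (unadjusted p = 0.00901, adjusted p = 0.257 in limma) and of -0.69 ± 0.23 over both genotypes (adjusted p = 0.0992). Its near-identical copies Ccl21b, Ccl21c and Ccl21d have no probe of their own here, and Ccl19 has pseudogene copies, so the signals of Ccl21a and Ccl19 may hold those of the copies. Ccr7 was at the floor on 13 arrays. Cxcl12, a ligand that keeps leukocytes in tissue, averaged -2.97 ± 0.47 in ko OVA, -2.25 ± 0.79 in ko saline, -2.70 ± 0.53 in wt OVA and -2.90 ± 0.57 in wt saline. Its receptor Cxcr4 averaged -1.64 ± 1.03 in ko OVA, -2.25 ± 0.51 in ko saline, -2.17 ± 0.51 in wt OVA and -2.16 ± 0.67 in wt saline, and neither gene passed in any comparison. Both genes had a second, dimmer probe, at the floor on all 16 arrays for Cxcl12 and on 13 for Cxcr4.

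Among the chemokines and receptors of mucosal epithelium, 0 of 9 tested genes passed in any comparison. Cxcl17, a mucosal chemokine of the airways, was bright on every array, from 4.96 to 6.34, and averaged 5.59 ± 0.47 in ko OVA, 5.15 ± 0.21 in ko saline, 5.74 ± 0.31 in wt OVA and 5.59 ± 0.52 in wt saline (SD, n = 4 each). Cxcl16, the ligand of Cxcr6, ranged from 0.74 to 1.78. Ccl25, the ligand of Ccr9, ranged from -0.37 to 0.36, and Ccl27a, a Ccr10 ligand, from -0.35 to 0.76. For Ccl25 a second probe was at the floor on 14 arrays.

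Ccl20, the ligand of Ccr6, averaged 0.91 ± 0.39 in ko OVA, 0.43 ± 0.60 in ko saline, 0.77 ± 0.41 in wt OVA and 1.17 ± 1.18 in wt saline. The wt saline arrays for Ccl20 spread from -0.13 to 2.43, a range that held every array of the other groups but ko saline 4 (-0.16). Ccl28, a mucosal ligand of Ccr3 and Ccr10, read -0.46, -1.59, -0.31 and 0.33 in ko OVA and -1.37, -1.27, -1.39 and -1.54 in ko saline. It read -0.57, -0.57, 0.25 and -1.01 in wt OVA and -0.76, -0.99, 0.01 and -0.63 in wt saline.

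The ko saline arrays for Ccl28 lay below all wt saline arrays. Their mean difference was -0.80 ± 0.35 (unadjusted p = 0.038, adjusted p = 0.776 in limma), and the OVA difference in ko was 0.88 ± 0.35 (adjusted p = 0.389). Cxcl14, a chemokine of resting epithelium, ranged from -3.32 to -0.29. Ccr6 and Cxcr6, receptors of lymphocytes in mucosa, were above background on all arrays, from -2.72 to -1.35 for Ccr6 and from -2.39 to -0.77 for Cxcr6.

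Of the atypical receptors, Ackr3, which takes up Cxcl12, averaged 1.24 ± 0.21 in ko OVA, 0.84 ± 0.50 in ko saline, 1.19 ± 0.30 in wt OVA and 0.77 ± 0.39 in wt saline. Its OVA difference over both genotypes was 0.41 ± 0.17 (unadjusted p = 0.0344, adjusted p = 0.203 in limma). Ackr2, which takes up inflammatory CC chemokines, was at the floor on all 4 wt saline arrays and at -3.05, -2.69, -1.67 and -2.83 in ko saline. With the processed intensities this puts ko saline at least 1.69-fold higher, without a call. Xcl1 left the floor on 1 wt OVA array, and its receptor Xcr1, a mark of cross-presenting dendritic cells, ranged from -3.32 to -1.54. Another Xcr1 probe was at the floor on 15 arrays.

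At background were 13 genes, that is, well above background on fewer than 4 of the 16 arrays. They were the ligands Ccl1, Ccl22, Cxcl3 and Cxcl9, the receptors Ccr1, Ccr1l1, Ccr4, Ccr8, Ccr9, Ccr10 and Cxcr1, and the atypical receptors Ackr1 and Ackr4; Ackr1 counted 5 arrays above background but was at the floor on all 16. Of these, Ccr1 and Ccr1l1 were above background on no array. Ccr8, the receptor of Ccl8 in the mouse, was so on 1 ko OVA and 1 wt OVA array, and Ccl22 and Ccr4 on 1 wt OVA array each. Of 22 such calls over these 13 genes and 16 arrays, 14 were on wt OVA 1 and wt OVA 2, where 74.5% and 73.2% of all probes were well above background, against 43.3% to 62.8% on the other arrays.

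Genes of the wider pathway were taken from 4 lists. Of 25 listed genes of receptor signalling, 23 were tested, and Grk5, a kinase that switches off activated receptors, fell by 0.36 ± 0.10 on the log2 scale with OVA over both genotypes (adjusted p = 0.0438), 1 of 23 where 6.46% of all genes passed. None of the 23 passed in any other comparison. Of 7 chemokine-like ligands and further receptors, 6 were tested and 0 passed; Mif, a cytokine that binds Cxcr2 and Cxcr4, had the smallest p, with an OVA difference over both genotypes of -0.31 ± 0.10 (adjusted p = 0.0739).

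Of 16 cytokines that induce chemokines, 6 were tested and 0 passed. Il1b, a product of activated myeloid cells, had an interaction of 4.19 ± 1.15 (unadjusted p = 0.00265, adjusted p = 0.993 in limma), with an OVA difference of 2.48 ± 0.81 in ko (adjusted p = 0.251) and -1.71 ± 0.81 in wt (adjusted p = 0.316). Of 18 receptors and transcription factors downstream of those cytokines, 17 were tested and 0 passed; Il17ra, the shared receptor chain for interleukin 17, had the smallest p, with a ko minus wt difference after OVA of 0.42 ± 0.15 (adjusted p = 0.884).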

How the data were processed

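RNA of airway epithelium (0.5 ug, labelled with Cy3) was hybridized to 16 one-colour arrays, per the labels' protocols. Each scanner file gives a processed intensity after background subtraction and flags for every spot, as deposited; the Feature Extraction version is 10.5.1.1 in the file headers but 10.1 in the submitters' notes. The authors' deposited table of the whole series is in log2, with array medians of 5.90 to 5.94; its scaling is not stated, and it served as an alternative.

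Controls and outlier spots (non-uniform or population) were dropped, and replicate spots of a probe were averaged. Each array was scaled to its 75th percentile, raised to a common floor (-3.32 in log2, the dimmest signal well above background on the array where that was highest) and log2 transformed. The filter kept 25615 of 41174 probes, those well above background on 4 arrays or more. The brightest probe stood for a gene. Symbols came from RefSeq accessions (24836 probes matched). The arrays were designed on mm9, and RefSeq promoters are of GRCm38.p6. limma 3.58.1 in R 4.3.3 was fitted to 18566 genes over all 16 arrays, with 7 contrasts and Benjamini-Hochberg adjustment at 0.05; it was tested on simulated data. Arrays correlated at 0.954 to 0.990, so none was a duplicate deposit. The number of arrays limits the precision.

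The members and lists were chosen with earlier results of these data known. Named were genes that passed, the 3 smallest p in contrasts with fewer calls, a set list of airway chemokines and receptors, and for each pathway list the genes called or the smallest p; other members are given by range, with values for those singled out after being seen. Alternatives were normexp (offset 50, on the median signal), median scaling, a lower floor, other filters, the mean over probes, the deposited table, only the groups compared, slide, array position or replicate number as a block, and leaving out each array. The results of 1 tested gene are not reported here.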

Additional observations from a re-analysis of the deposited data

Results flagged for a closer look

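For 101 sets of a gene and a group of 4 arrays with no array at the floor, 1 array stood apart from the other 3 by Dixon's criterion in 3 sets; chance gives about 1 in 20 sets. Ccl4 was 0.97 on wt saline 1, against 0.15 to 0.27 on the other 3 wt saline arrays. Ccr6 was -2.0 on wt saline 2, against -1.42 to -1.35 on the other wt saline arrays. Cxcl15 was 3.21 on ko saline 4, against 2.14 to 2.27 on the other ko saline arrays.

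Among the genes at background, 10 gave signal well above background on some arrays and on no wt saline array. Ackr1 did so on 5 arrays and Ccr9 on 3. Ccl1, Ccr8 and Cxcr1 did so on 2 arrays each. Ackr4, Ccl22, Ccr10, Ccr4 and Cxcl9 did so on 1 array each. Many of these signals were on wt OVA 1 and wt OVA 2, the arrays with the highest shares of probes above background (74.5% and 73.2%).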

How the results depend on the processing

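No called difference changed sign. The uncalled genotype differences of Cxcl13 did so with normexp, at -0.10 over both treatments and -0.0046 after saline. Counts of chemokine and receptor genes called moved as follows. For OVA in wt (main 1) they were 0 with normexp, 0 with median scaling and 2 (Ccl3 and Ccl8) with only the groups compared. For ko against wt after saline (main 0) they were 1 with median scaling, the lower floor, the 8-array filter, the deposited table or slide as a block, and 2 (Ccl2 and Ccl3) with only the groups compared. For OVA over both genotypes (main 1) they were 2 with median scaling, the deposited table or slide as a block and 3 with the lower floor; Cxcl13 was then called at -0.55, -0.72 and -0.43 with median scaling, the lower floor and the deposited table. For genotype over both treatments (main 1) they were 0 with normexp or array position as a block and 2 with the lower floor. Leaving out 1 array gave 0 to 2 for OVA in ko, 0 to 2 for OVA in wt, 0 to 1 for ko against wt after OVA, 0 to 2 after saline, 0 to 1 for the interaction, 1 to 2 for OVA over both genotypes and 1 to 1 for genotype over both treatments. The causes were not tested.

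Over all genes, the main 139 calls for OVA in ko became 63 with normexp, 35 with median scaling, 7 with only the groups compared and 69 to 168 without 1 array. The main 485 for OVA in wt became 130, 100, 235 and, with array position as a block, 94, and 235 to 543 without 1 array. The 27 for ko against wt after OVA became 7 with normexp, 7 with only the groups compared and 25 to 31 without 1 array. The 30 after saline became 46 with the lower floor, 55 with the deposited table, 15 with array position and 25 to 47 without 1 array. The interaction's 0 became 1 with slide as a block and 0 to 3 without 1 array. The 1200 for OVA over both genotypes became 365 with normexp, 379 with median scaling, 747 with slide, 525 with array position and 762 to 1229 without 1 array. The 50 for genotype over both treatments became 27 with normexp, 79 with median scaling, 85 with the deposited table, 27 with array position and 40 to 66 without 1 array. Median scaling moved the median of all genes by 0.32 for ko against wt after OVA and by -0.25 for OVA in wt, and turned the OVA calls in wt to 39 higher and 61 lower, from 289 higher and 196 lower. The replicate numbers did not pair arrays (r of deviations -0.41 to 0.41 over 24 same-number pairs, 8 of them over 0.1); with the replicate block, Ccl8 in wt had an adjusted p = 0.0388, Ccl2 over both treatments 0.0418, and no count of genes of the set changed. Signal over background limits the 12 genes at the floor on 8 arrays or more, whose differences depend in size on the floor.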
